A study of Mus musculus with 4 samples.

Results

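The array described here compared RNA from the dentate gyrus of mice given MK-801 with RNA from the dentate gyrus of mice given saline, at the 6 h time of a series of 4 two-colour arrays. Its members were all features (spots of the array) with a value other than exact 0 at 6 h, whether or not the other arrays measured them. They numbered 10512 of the 16281 features in the table. Of these, 9189 had 1 gene symbol in the platform annotation and stood for 7805 genes, and 1323 were left unnamed. A value was also present on all 3 other arrays for 8777 of the 10512 features, on 2 for 1223, on 1 for 379 and on none for 133.

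The mice were young male C57BL/6J. One group had an injection of saline (5 µL per g body weight), and its RNA was labelled with Cy3. The other had an injection of MK-801 (300 µg per g body weight as the labels print it, far above the doses usually given to mice, so an error of unit is possible), and its RNA was labelled with Cy5. The labels count the 6 h from a last shock and call the RNA of both channels that of control mice, so it is not settled whether the injected mice had been shocked. The labels do not say how many mice were pooled. The 6 h array was not repeated and its dyes were not exchanged, so no value at 6 h has a replicate error, and a dye effect and a treatment effect of a gene cannot be told apart.

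All values below are log ratios of the deposited table, read as log2 and centred by subtracting the array median (0.0052 before centring). The sources used here state neither the base of the logarithm nor which channel is the numerator. A positive value may therefore mean more RNA in either channel, and results are given by sign only. A table of ratios holds no levels, so the tissue label could not be checked against the level of dentate markers. In whole tissue, fewer cells of a type and less RNA per cell also cannot be told apart.

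MK-801 (dizocilpine) blocks the open channel of NMDA receptors, the glutamate receptors that let calcium into the neuron when the synapse and the cell are active together. The granule cells are the main neurons of the dentate gyrus, and calcium entry through their NMDA receptors switches on immediate early genes such as Fos and Arc within minutes to hours. The dentate gyrus also holds interneurons, glia, vessels and, in the subgranular zone, dividing progenitors that give rise to new granule cells.

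Most values at 6 h were small. The middle of the named features, between the 25% and 75% quantiles, lay between -0.14 and 0.15, and the 5% and 95% quantiles were -0.44 and 0.40. The SD over all features was 0.378, against 0.374, 0.320 and 0.442 at 1, 2 and 4 h. The upper end was short, with 12 named features at or above 1, a ratio of 2 (0.131% of 9189), and a maximum of 1.53. The lower end was long, with 135 named features at or below -1 (1.47%) and a minimum of -3.55. The low features formed a group of their own: 91 lay at or below -2, 77 of them at or below -2.5, and only 11 lay between -2 and -1.5. Averaged per gene, 202 of 7805 genes (2.59%) stood at or above 0.5, a ratio of 1.41, and 305 (3.91%) at or below -0.5. Of all named genes 50.3% were positive, with a median of 0.00, and gene lists are read against that share. For the lists described below, the median is given again where another setting moved it by over 1.5 times or turned its sign, unless its size was under 0.05 in each setting. These settings were features with a value on all 4 arrays, features below -1.5 left out, and a running median in the order of feature numbers subtracted. Exact 0 read as a value adds genes at 0 and is counted once: of 29 lists with a median of at least 0.05 in size, 19 became smaller by over 1.5 times, 6 of them to 0, and none turned.

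**Figure D1:**
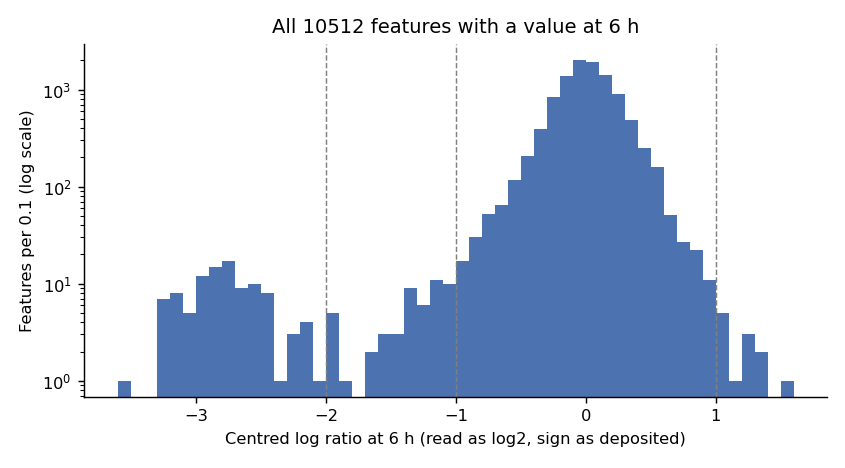
The number of features (log scale) is plotted against the centred log ratio at 6 h for all 10512 features, with dashed lines at -2, -1 and 1. The bulk of the features surrounds 0, the upper end stops at 1.53, and a separate group of features lies below -2.

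Among the targets of the drug, 4 of the 5 NMDA receptor subunit genes on the array had a value at 6 h, and they were split in sign. Grin2a, a subunit of mature synapses, stood at -0.20, -0.35, 0.78 and 0.48 at 1, 2, 4 and 6 h. Grin2b, a subunit prominent early in development, had features at 0.55 and 0.00, Grin2c had features at -0.27 and -0.19, and Grin2d stood at -0.36. The features of Grin2b were thus not alike.

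The other glutamate receptor genes leaned to positive values. Of 13 genes for AMPA, kainate, delta and metabotropic receptors and their auxiliary subunits, 10 were positive, with a median of 0.08. With the running median subtracted 7 of 13 genes were positive, with a median of 0.02. The highest were Cacng2, the stargazin subunit that carries AMPA receptors to the synapse (0.42), Gria4 (0.41) and Gria3 (0.28), both AMPA receptor subunits. The lowest were the kainate receptor subunit Grik5 (-0.28) and the AMPA receptor auxiliary subunit Cnih3 (-0.20). The same list had medians of -0.20, 0.01 and 0.04 at 1, 2 and 4 h. Genes of GABA and glycine receptors were fewer: 3 of 9 were positive and the median was -0.01, with Gabrr1 at -2.76 and Gabra2 at 0.23 as its ends. The Gabrr1 value is that of 1 feature in the group at or below -2 described below.

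Immediate early genes leaned to negative values. Of 53 measured genes of the list, 33 were negative and 20 positive, and the median was -0.13. At or below -0.5 stood 4 of the 53, against 3.91% of all genes, and none reached 0.5, against 2.59%. The medians of the same list at 1, 2 and 4 h were 0.15, -0.06 and -0.20, so its sign at 6 h was that of 2 and 4 h and the opposite of 1 h.

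The most negative members were Ccn2, a matrix protein induced by growth factors (-0.62), Klf10, a zinc finger repressor (-0.55), and Sik1, a kinase induced by cyclic AMP (-0.55). Egr1, the zinc finger factor used as a marker of neuronal activity, stood at 0.16, -0.37, -0.68 and -0.53 at 1, 2, 4 and 6 h. Nr4a1, an orphan nuclear receptor, went through 0.63, -0.13, -0.28 and -0.36. Arc, which removes AMPA receptors from synapses, had 0.51, -0.01, -0.21 and -0.19. Junb, a partner of Fos in AP-1, had 0.35, -0.24, -0.29 and -0.24. All 4 of these genes were positive at 1 h and negative at 2, 4 and 6 h.

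Dusp1, the phosphatase that switches off MAP kinases, had 2 features that ran together: 0.46, 0.00, -0.23 and -0.35 for one, and 0.36, 0.01, -0.21 and -0.34 for the other. Per1, a clock gene that also responds to activity, had features at -0.44 and -0.40 at 6 h and was negative on all 4 arrays. The features of Fos did not run together. One stood at 1.17, -1.06, -1.17 and -1.01 and the other at 0.11, 0.02, 0.01 and 0.02, so the Fos mean of -0.50 at 6 h rests on 1 feature. Homer1, a postsynaptic scaffold gene with long and short transcripts, had features at 0.20, 0.17, -0.15 and -0.71. The features were not assigned to transcripts here.

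Against the lean of the list, Atf3, a stress-induced factor, stood at 0.43, Tob1, an antiproliferative gene, at 0.39, Crem, a cyclic AMP response factor, at 0.38, Klf4 at 0.37 and Ptgs2, the inducible cyclooxygenase, at 0.35. Jun at 0.01 and Egr3 at 0.22 were not negative either, although Egr3 had been at -0.53 at 4 h. Bdnf, the neurotrophin gene induced by calcium, had features at 0.28 and 0.07. Late response genes, which follow the immediate early genes, were 9 positive and 13 negative of 22, with a median of -0.01. Their ends were Gpr3 (features at -2.13 and 0.21) and Rgs4, a regulator of G protein signalling (0.75 and 0.02). Fosb, Npas4 and Grin1 had no named value at 6 h.

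One DNA element through which calcium and cyclic AMP act on such genes is the cyclic AMP response element, spelled TGACGTCA, which reads the same on both strands. It was searched in the RefSeq promoters of GRCm38.p6, each 250 bases before to 50 bases after the start of the gene. It was found in 4 of 40 immediate early genes that were measured at 6 h and had a promoter in the table (10%), against 1.79% of all 32851 promoters and 3.11% of the 6277 measured genes with a promoter. The 4 genes were Dusp1 (-0.35), Plk2 (0.02), Btg2 (0.10) and Ppp1r15a (0.19), so those with the element did not share a sign. Of these 4 genes 3 were positive (75%), and of the 36 genes without the element 12 were positive (33.3%). The features of Plk2 differed in sign (-0.04 and 0.09), and 4 genes are too few to compare these shares. The promoter of Dusp1 (chr17:26508423-26508722, minus strand), the negative gene of the 4, is shown because its features had similar values at each time. Capitals mark the element.
Dusp1: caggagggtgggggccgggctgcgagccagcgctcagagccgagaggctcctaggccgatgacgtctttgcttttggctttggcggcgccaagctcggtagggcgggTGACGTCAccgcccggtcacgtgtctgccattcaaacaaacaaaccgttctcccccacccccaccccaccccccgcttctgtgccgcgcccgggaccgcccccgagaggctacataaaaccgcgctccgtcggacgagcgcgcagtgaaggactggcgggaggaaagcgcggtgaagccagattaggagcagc

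Genes of energy metabolism leaned to positive values by small amounts. Of 63 genes for subunits and assembly factors of the respiratory chain and ATP synthase (the list also took in pseudogenes), 50 were positive and 13 negative, with a median of 0.13. None of the 63 reached 0.5 in either direction, against 2.59% of all genes at or above 0.5 and 3.91% at or below -0.5, and the genes lay between -0.46 and 0.48. The list medians at 1, 2 and 4 h were 0.05, 0.10 and 0.05.

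By complex, the highest genes of complex I were Ndufs4, an accessory subunit (0.42), Ndufa12 (0.39) and Ndufa3 (0.33), beside the assembly factors Ndufaf7 (0.48) and Ndufaf3 (0.42). Complex I also held the lowest gene, Ndufb4 (-0.46), followed by Ndufb11 (-0.12). Of complex II, Sdhb, its iron-sulfur subunit, stood at 0.26 and Sdhc, a membrane anchor, at 0.15. Of complex III, Uqcr11 stood at 0.29 and Uqcrc1, a core subunit, at 0.15. Of cytochrome oxidase, Cox5b stood at 0.31 and Cox4i1 at 0.23, while Cox7a2 was at -0.06. Of ATP synthase, Atp5h stood at 0.31, Atp5a1, the alpha subunit of the catalytic head, at 0.30, Atp5g2, a gene of the membrane ring, at 0.29, and Atp5b, the catalytic beta subunit, at 0.20. Each of these complexes had members above 0.2, but the genes were picked with their values known. The share of all genes above 0.2 was not counted, so such members set no complex apart.

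Respiratory chain genes often carry a site for nuclear respiratory factor 1 near their start. Its core, spelled GCGCANGCG and searched on both strands (a match on each strand can overlap), was found in 15 of 52 measured respiratory chain and ATP synthase genes with a promoter (28.8%). Its share was 13.5% of the 6277 measured genes with a promoter and 6.25% of all 32851 promoters. Of the 15 genes with the core, 13 were positive (86.7%), and of the 37 genes without it, 29 were positive (78.4%). Positive genes were the majority both with and without the core. The promoters of 1 gene each of complexes I and III and of ATP synthase are shown as examples with the core, in capitals: Ndufa8 (chr2:36049289-36049588), with a value of 0.28, Uqcr11 (chr10:80406772-80407071), with 0.29, and Atp5g2 (chr15:102670998-102671297), with 0.29, all on the minus strand.
Ndufa8: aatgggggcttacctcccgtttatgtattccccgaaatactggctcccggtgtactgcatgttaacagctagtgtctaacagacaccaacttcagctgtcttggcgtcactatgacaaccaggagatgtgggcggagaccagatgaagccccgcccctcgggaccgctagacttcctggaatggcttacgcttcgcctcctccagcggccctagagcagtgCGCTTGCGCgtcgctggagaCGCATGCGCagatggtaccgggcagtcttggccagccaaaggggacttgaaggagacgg
Uqcr11: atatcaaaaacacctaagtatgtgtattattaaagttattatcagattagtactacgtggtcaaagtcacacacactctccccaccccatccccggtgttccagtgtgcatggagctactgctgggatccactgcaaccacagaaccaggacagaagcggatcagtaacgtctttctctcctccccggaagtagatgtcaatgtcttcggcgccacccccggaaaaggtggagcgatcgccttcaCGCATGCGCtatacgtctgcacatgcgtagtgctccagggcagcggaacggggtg
Atp5g2: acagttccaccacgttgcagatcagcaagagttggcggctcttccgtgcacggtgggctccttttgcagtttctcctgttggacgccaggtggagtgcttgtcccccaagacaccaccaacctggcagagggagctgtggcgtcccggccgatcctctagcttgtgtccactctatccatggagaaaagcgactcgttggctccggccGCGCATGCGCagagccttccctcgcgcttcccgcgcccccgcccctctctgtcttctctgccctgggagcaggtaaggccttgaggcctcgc

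The neighbouring pathways leaned the same way. Of 21 genes of the citric acid cycle and pyruvate dehydrogenase, 16 were positive, with a median of 0.10 (14 and 0.06 with the running median subtracted). The highest were Pdhb, a subunit of the first enzyme of the pyruvate dehydrogenase complex (0.71), Suclg2 of succinyl-CoA synthetase (0.50) and Mdh1, the cytosolic malate dehydrogenase (0.46), and the lowest was Dlst (-0.28). Of 20 genes of glycolysis, 13 were positive, with a median of 0.09. Aldoc, the aldolase of astrocytes, stood at 0.45, Aldoa at 0.41 and Pgk1 at 0.39, while Pfkfb3, which makes the activator of phosphofructokinase, stood at -0.40.

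Gapdh, the glycolytic enzyme often used as a loading control, had 17 features at 6 h, which is the closest thing to a repeated measurement on this array. All 17 were positive, between 0.15 and 0.45, with a mean of 0.35 ± 0.06 (SD over features of 1 array). The mean of these features was -0.26 at 1 h, 0.48 at 2 h and 0.39 at 4 h. Other Gapdh features had no value at 6 h, and some of them were low at 4 h, at -2.45, -2.59 and -2.54. Actb, another gene used as a control, stood at -0.10.

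Antioxidant and detoxification genes were positive in 44 of 62 cases, with a median of 0.14. Cat, the peroxisomal catalase, was the highest at 1.25 and had been at -0.61, -0.76 and 1.59 at 1, 2 and 4 h. Aldh1a7 stood at 0.58 and Gsta4, a glutathione transferase that removes lipid aldehydes, at 0.43. The lowest were Sod3, the extracellular superoxide dismutase (-0.62), and Prdx4, a peroxiredoxin of the endoplasmic reticulum (features at -0.88 and -0.04). Genes that make and recycle tetrahydrobiopterin, the cofactor of nitric oxide synthase and of the aromatic amino acid hydroxylases, were positive in 5 of 6 cases, with a median of 0.23. Gch1, the first enzyme, and Qdpr, the recycling enzyme, both stood at 0.36, Pts at 0.28 and Spr at -0.06.

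Genes of protein synthesis and breakdown also leaned to positive values. Of 39 proteasome genes, 32 were positive, with a median of 0.10. The highest were the core subunits Psmb7 (0.43) and Psmb2 (0.42) and the ATPase Psmc3 of the regulatory cap (0.43), and the lowest was Psma2 (-0.40). Psmc2, another ATPase of the cap, had features of opposite sign at 0.25 and -0.82. Of 58 cytosolic ribosomal protein genes, 44 were positive, with a median of 0.10, and the genes lay between -0.35 for Rpl30 and 0.46 for Rpl4. On features with a value on all 4 arrays, 30 of 41 were positive and the median was 0.04, and with the running median subtracted it was 0.06. Mitochondrial ribosomal proteins were positive in 34 of 55 cases, with a median of 0.05. Ubiquitin enzymes were positive in 75 of 120 cases, with a median of 0.05 (67 cases and 0.03 with the running median subtracted), from Fbxw2 (-0.71) to Cul2, a scaffold of ubiquitin ligases (0.64).

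Heat shock proteins and chaperones were positive in 51 of 80 cases, with a median of 0.06. Their ends were Hspb3, a small heat shock protein (0.91), and Hspa1b, the inducible HSP70 (features at -0.14 and -1.93). Hspa8, the constitutive HSP70, stood at 0.40. Pdia4, a disulfide isomerase, had features at 0.43, 0.11 and -2.75, so its mean of -0.74 rests on 1 feature.

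**Figure D2:**
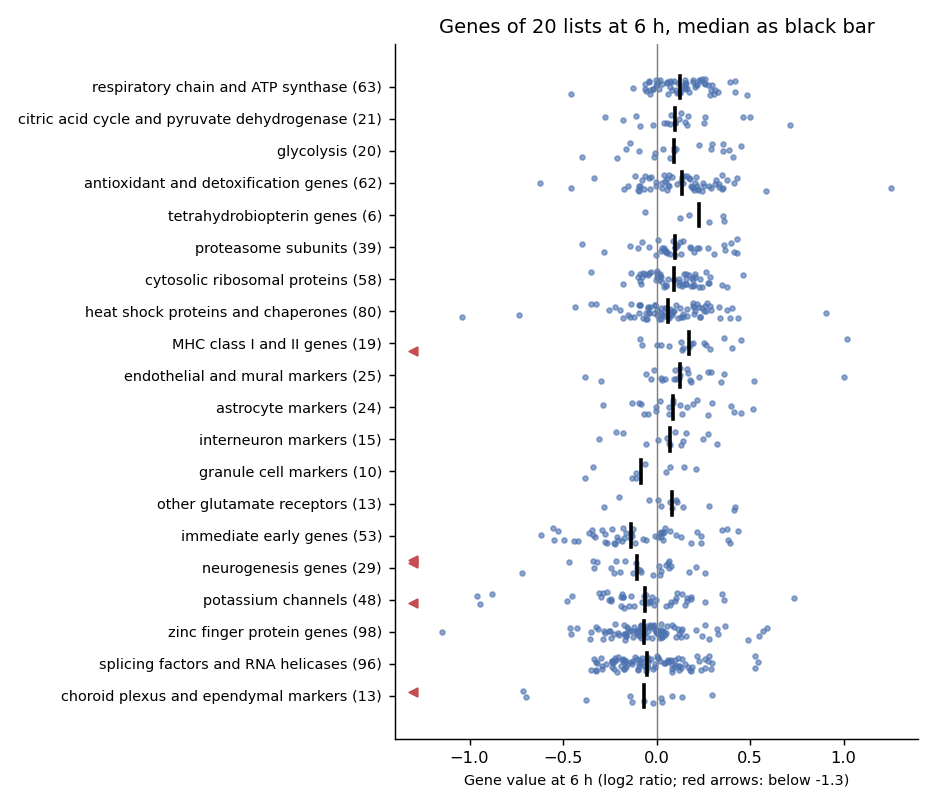
Each point is the value of 1 gene at 6 h (mean of its features, log2 ratio), in 20 gene lists with the number of measured genes in brackets, the black bar is the median of the list, and red arrows mark genes below -1.3. List medians lie between -0.13 for immediate early genes and 0.23 for tetrahydrobiopterin genes, and in all 20 lists genes lie on both sides of 0.

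Lists that leaned to negative values held regulators of transcription and RNA. Of 98 zinc finger protein genes, 63 were negative, with a median of -0.07. The lowest was Zbtb20, a repressor needed for hippocampal pyramidal identity (-1.15), which had been at -0.13, 0.02 and -0.97 at 1, 2 and 4 h, and the highest was Zfp235 (0.59). Of 96 splicing factors and RNA helicases, 56 were negative, with a median of -0.05. They lay in a narrow range from -0.35 for Rbm12b1 to 0.54 for Lsm2. Of 57 chromatin enzymes, 33 were negative, with a median of -0.06, among them the histone methyltransferases Kmt2b (-0.44) and Kmt2a (-0.36), while Smarce1, a subunit of the SWI/SNF remodeller, stood at 0.56.

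Potassium channel genes were negative in 32 of 48 cases, with a median of -0.06. The lowest was Kcnj12 at -1.57, a mean that rests on 1 feature at or below -2 (features at -2.89 and -0.25). Kcna3, a voltage-gated channel, stood at -0.96, and Kcnj3 and Kcnj2, which carry inward rectifier currents, at -0.94 and -0.88. Kcnh3 had 3 features, all negative, between -0.72 and -0.18, and the features shared a sign in 14 of the 20 channel genes with several. Kcnn4, a channel opened by calcium, was the highest at 0.73, and Kcna5 stood at 0.35. Sodium and calcium channels leaned the other way, with 12 of 19 positive and a median of 0.05. There Cacna2d3 stood at 0.49 and Cacna1g, a T-type calcium channel, at -0.47 (features at -0.68 and -0.26).

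At the synapse, genes of the presynaptic vesicle cycle were positive in 42 of 73 cases, with a median of 0.04 (40 of 62 and 0.09 on all 4 arrays). Stxbp2 stood at 0.57, Stx1a, the syntaxin of the release site, at 0.54, and Rab3b at 0.46. The lowest were Stx5a (features at -2.66 and -0.58), Vamp7 (-2.58 and -0.23) and Dnm1, the dynamin of synaptic vesicle uptake (-2.86 and 0.16). Each of these 3 low means rests on 1 feature below -2. Postsynaptic scaffolds were positive in 10 of 15 cases, with a median of 0.06 (9 and 0.03 with the running median subtracted). Homer2 had 3 features, all positive, between 0.07 and 0.27, while the features of Pick1, which binds AMPA receptors, stood at 0.14 and -2.49. Small GTPases were positive in 49 of 88 cases with a median of 0.03, and MAP kinases and protein phosphatases in 48 of 110 with a median of -0.04.

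Marker lists of the cell types of the region differed in sign. Granule cell markers were positive in 4 of 10 cases, with a median of -0.08. Prox1, the factor that defines granule cells, stood at 0.21 and had been at -0.57, 0.04 and 0.60. Calb1, the calcium buffer of mature granule cells, had features at -0.14 and 0.02. Marcks, an actin-binding substrate of protein kinase C, had 3 features, all negative, with a mean of -0.38 ± 0.10 (SD over features), and Neurod2 stood at -0.34. CA pyramidal markers were positive in 5 of 10 cases, with a median of 0.01.

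Interneuron markers were positive in 11 of 15 cases, with a median of 0.07. The peptide genes Vip (0.32) and Npy (features at 0.39 and 0.10) and the calcium buffer Pvalb (0.27) were the highest, and the potassium channel Kcnc1 (-0.31) was the lowest. Among the 4 negative markers were also Calb2 (features at -0.42 and -0.01) and Slc32a1, the vesicular GABA transporter (-0.24 and -0.13). The features of Gad1 differed in sign (-0.03 and 0.13). Astrocyte markers were positive in 16 of 24 cases, with a median of 0.09. Fgfr3 stood at 0.51, Aldoc at 0.45, Gfap, the intermediate filament of astrocytes, at 0.42 and the glutamate transporter Slc1a3 at 0.40, while Sox9 stood at -0.28. F3, also among the 8 negative markers, had 3 features, all negative, with a mean of -0.13 ± 0.03 (SD over features). The medians of the astrocyte list at 1, 2 and 4 h were -0.09, 0.07 and -0.07, with 10 of 24 genes positive at 4 h.

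Endothelial and mural markers were positive in 20 of 25 cases, with a median of 0.12. Acta2, the smooth muscle actin of vessel walls, stood at 1.00, Emcn at 0.52, and Pecam1 at 0.36. The VEGF receptor Flt1 (-0.38) was the lowest. Microglia and macrophage markers were positive in 11 of 20 cases, with a median of 0.06 (0.03 with the running median subtracted), between Cd14, a receptor for bacterial lipids (-0.99), and the lysosomal Cd68 (0.79). The C1q chains, which form 1 complex, did not share a sign: C1qa stood at -0.16, C1qc at -0.18 and C1qb at 0.35. Oligodendrocyte markers were positive in 7 of 12 cases with a median of 0.06 (0.11 with the running median subtracted).

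Choroid plexus and ependymal markers were positive in 5 of 13 cases, with a median of -0.07. It was -0.02 on features with values on all 4 arrays and -0.14 with the running median subtracted. Ttr, the thyroid hormone carrier that the choroid plexus makes in large amounts, stood at -0.20, -0.90, -0.60 and -0.70 at 1, 2, 4 and 6 h, Col8a1 at -0.71 and Cldn2 at -0.38 at 6 h. Kl had features at -3.18 and -0.09. Tissue of the choroid plexus lies beside the dentate gyrus. The part of choroid plexus RNA in the other results was not tested.

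Of 19 MHC class I and II genes, 16 were positive, with a median of 0.17, and the medians at 1, 2 and 4 h were -0.03, 0.10 and 0.06. The highest were H2-Ea, a class II chain (1.02), the class I genes H2-Q7 (0.45) and H2-M1 (0.40), and H2-Oa (0.36). The H2-Ea value is that of 1 feature, which stood at 0.61 at 2 h and had no value at 1 or 4 h. Of the 3 genes with several features, H2-T22 had 4, all positive, between 0.04 and 0.30, while H2-M9 had features at 0.56 and -0.27 and H2-Q5 at 0.01 and -0.19. The lowest was H2-M10.1 at -3.09, on 1 feature. The list was drawn by name and also took in H2-Ke6 (0.18), which is no antigen-presenting gene. The others have close relatives, and features of 1 gene may bind RNA of another. Cytokine, chemokine and interferon genes were positive in 66 of 154 cases, with a median of -0.04.

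Neurogenesis genes, those of the progenitors and new neurons of the subgranular zone, were negative in 18 of 29 cases, with a median of -0.11 (20 cases and -0.18 with the running median subtracted). Hes1, the Notch target that holds back the differentiation of progenitors, stood at -3.16, Igfbpl1 at -1.85, Sox11, a factor of new neurons, at -0.72 and Sox2, a stem cell factor, at -0.33. The Hes1 value is that of 1 feature in the group at or below -2 described below. Vim at 0.26 and Prox1 at 0.21 were the highest. Cell cycle and DNA replication genes were positive in 44 of 87 cases, with a median of 0.00. In that list 8 of 87 genes stood at or above 0.5, against 2.59% of all genes, and the features shared a sign in 8 of its 22 genes with several. The 8 genes included Aurkc (0.81), Ccne1, the cyclin of entry into S phase (0.77), and Cdkn3 (0.71).

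Clock and clock output genes were positive in 5 of 14 cases, with a median of -0.05 (-0.03 on all 4 arrays or without features below -1.5). Rora, an activator of the clock, stood at -2.13 and Dbp, a clock output gene, at 0.84, -0.11, -1.51 and -0.89 at 1, 2, 4 and 6 h. The Rora value is that of 1 feature in the group at or below -2. Cry1, a clock repressor, had features at 0.40 and 0.24. Glucocorticoid receptor and target genes were positive in 17 of 28 cases with a median of 0.02. Sgk1, a kinase induced by glucocorticoids, had features at 0.18 and 0.19, Fkbp5, a chaperone of the receptor, stood at -0.01, and the receptor gene Nr3c1 at -0.22.

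**Figure D3:**
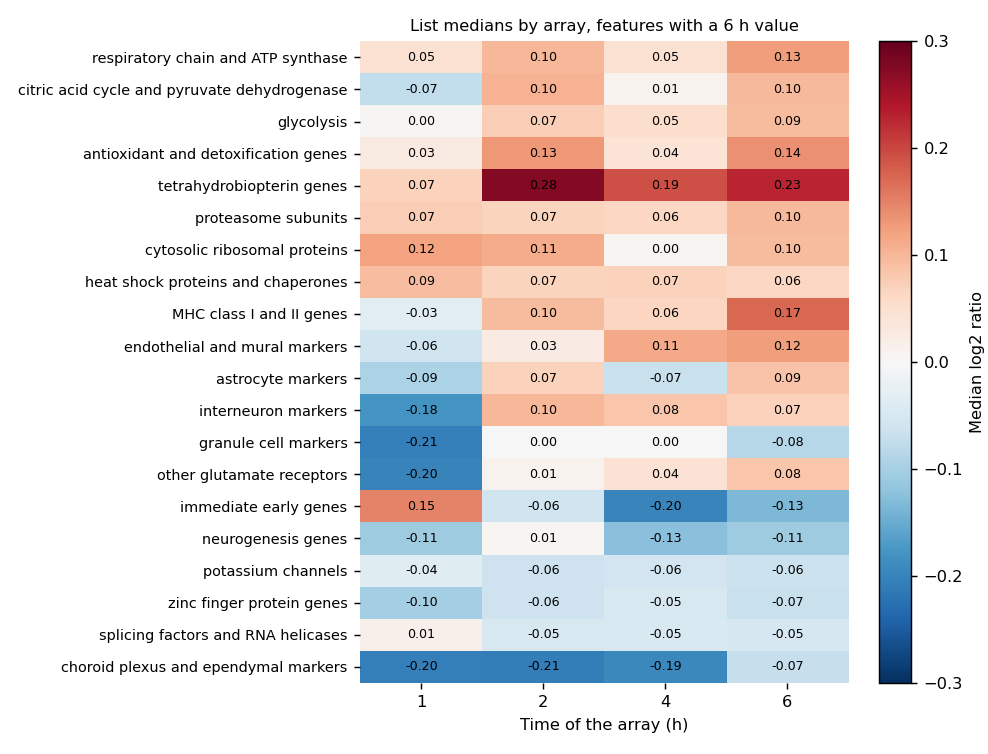
Cells give the median log2 ratio of each of 20 gene lists on the 1, 2, 4 and 6 h arrays, over features with a value at 6 h, with red for positive and blue for negative medians. Immediate early genes go from 0.15 at 1 h to -0.13 at 6 h, while respiratory chain genes are positive at each time and highest at 6 h (0.13).

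The 12 highest features belonged to 12 genes, no pair of which shares a list. Efna1, a membrane-bound ephrin ligand, was the highest at 1.53 and had been at -0.05 at 1 h and 0.94 at 4 h, with no value at 2 h. Vdac1, the main pore of the outer mitochondrial membrane, stood at -0.38, -0.22, 1.40 and 1.36 at 1, 2, 4 and 6 h. Tex47 had -1.43, -0.56, 1.31 and 1.27, and H1f4, a linker histone, -0.64, -0.29, 1.48 and 1.05. With Cat, these were the 4 of 10 high features with a value at 4 h that were also at or above 1 there.

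Of the rest, Cd247, the zeta chain of the T cell receptor, stood at 1.30, the retroviral Erv3 at 1.24, Bcl2a1b, an inhibitor of apoptosis, at 1.13 and Septin3, a neuronal septin, at 1.08. H2-Ea (1.02), Serpina1d (1.00) and Acta2 (1.00) completed the set. The features just under the limit were Hoxb5 (0.99), Vegfb (0.97) and Ywhaz (0.97), and the other features of Vegfb and Ywhaz stood at 0.02 and -0.05. Of the 12 genes only Cd247 had another feature at 6 h, and that one stood at 0.29. At 1 h none of the 8 high features with a value was at or above 1, and their median was -0.43.

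The 91 named features at or below -2 had a median of -2.79 at 6 h. The lowest was Xist, the RNA that silences an X chromosome in female cells, at -1.20, -3.55, -4.18 and -3.55 at 1, 2, 4 and 6 h. The mice were male by their labels, and the Xist value rests on 1 feature. Slc10a2, the bile acid transporter of the ileum, stood at -3.30 and had no value on any other array. Btc, a ligand of the EGF receptor, stood at -3.29, Lalba, a milk protein gene, at -3.28, Sdc3, a heparan sulfate proteoglycan of neurons, at -3.25 and Atp7a, a copper pump, at -3.22. Timp1, an inhibitor of matrix proteases, followed at -3.21, Tfrc, the transferrin receptor, at -3.20, Ap3s2 at -3.19, Kl at -3.18 and Snx3 at -3.18. The set thus mixed genes of the brain with genes of the gut, the mammary gland and other organs.

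The other features of the same genes did not share these low values. Of the 91 genes, 54 had another feature with a value at 6 h. None of the 54 was at or below -1 there, 23 were negative, and they lay between -0.88 and 0.55 with a median of 0.04. Tfrc is an example with features at -3.20 and 0.32, Btc one with -3.29 and 0.17, and Slc38a3, a glutamine transporter, one with -3.15 and 0.48. Timp1 had features at -3.21 and -0.53, which shared a sign. A gene mean that takes in such a feature therefore depends on it.

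The same 91 features were also low on the arrays nearest in time. At 4 h, 83 of them had a value and all 83 were at or below -1, with a median of -2.74. At 2 h only 36 had a value, and all 36 were at or below -1, with a median of -2.69. At 1 h, 63 had a value, of which 7 were at or below -1, with a median of -0.08. The share of the 91 with a value at 2 h was 39.6%, against 94.7% of the other named features, while at 4 h it was 91.2% against 92.5%. Between -2 and -1 lay a further 44 named features with a median of -1.30. Of their 16 genes with another feature, 9 shared the sign and none was at or below -1.

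**Figure D4:**
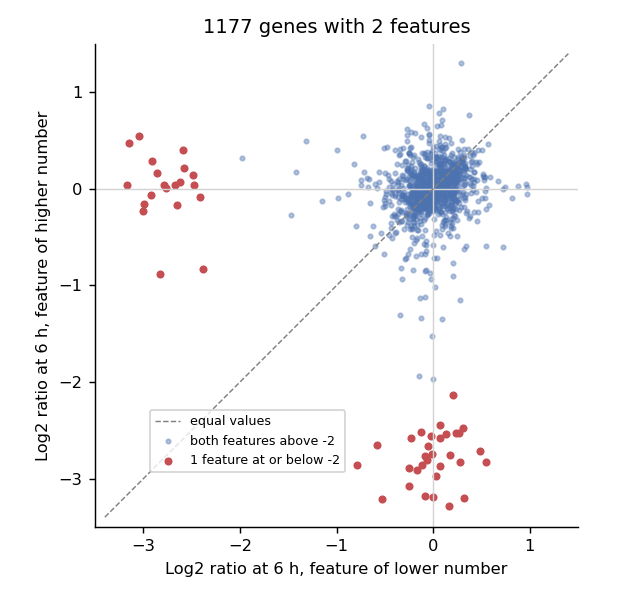
For 1177 genes with 2 features, the log2 ratio at 6 h of the feature with the higher number is plotted against that of the feature with the lower number, and genes with a feature at or below -2 are red. The red points lie along the axes, away from the dashed line of equal values, because the other feature of these genes lies between -0.88 and 0.55.

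Features at or below -2 were not spread evenly over the feature numbers of the table. The numbers form 12 runs separated by gaps of over 50. In the first 10 runs, 60 of 63 such features, unnamed ones included, lay in the last 20% of their run, which held 16.9% of the 8782 features with a value there. In run 11, 25 of 30 lay in the first 20%, and in run 12, 1 of 8 lay in the last 20%. Over blocks of 100 numbers, 15701 to 15800 held 12 and 15801 to 15900 held 10. The median of all features in these blocks was -0.06 and -0.09. How the numbers map to places on the slide was not stated in the labels, and the part of place on the array in the low values was not tested.

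**Figure D5:**
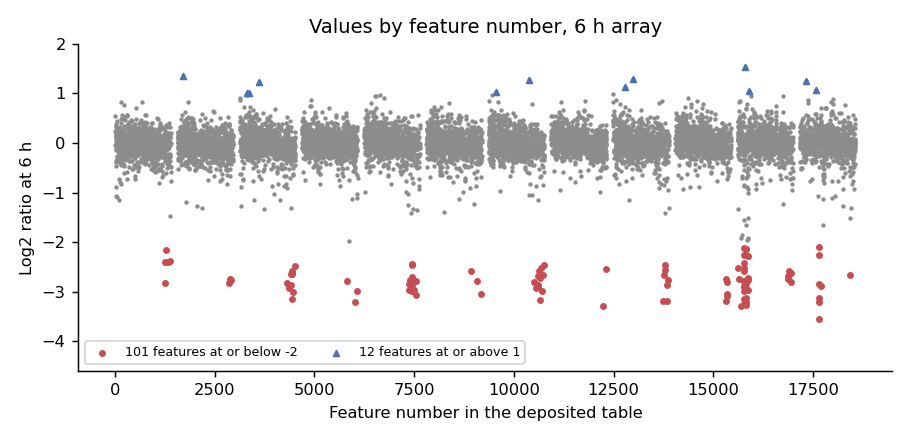
The log2 ratio at 6 h of all 10512 features is plotted against their number in the deposited table, with 101 features at or below -2 as red points and 12 features at or above 1 as blue triangles. The red points gather near the end of most of the 12 runs of numbers and at the start of run 11, while the blue triangles are scattered.

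The features of a gene are the only internal repeat at 6 h. Of the 1177 genes with 2 features, 717 had features of the same sign (60.9%), and the median difference in size was 0.17. Across these pairs, which share 1 array, Pearson's r was 0.02 and Spearman's rho 0.20. Leaving out pairs with a feature below -1.5 gave 1122 pairs with 61.6% of the same sign and r of 0.15. Among the 61 pairs with both features at least 0.3 from 0, 62.3% shared a sign. Features that carry the same accession in the annotation shared a sign in 60.6% of 180 pairs, and features with different accessions in 61.0% of 997. By list, among those with at least 5 genes of several features, agreement ran from 2 of 7 postsynaptic scaffolds and 8 of 22 cell cycle genes to 5 of 5 antioxidant genes, 5 of 5 homeobox, Sox and forkhead factors and 6 of 6 splicing genes. In other lists described above it was 3 of 6 for proteasome genes, 3 of 6 for astrocyte markers, 7 of 8 for interneuron markers, 5 of 6 for respiratory chain genes and 9 of 12 for immediate early genes. Of lists with fewer such genes, granule cell and choroid plexus markers had 1 of 3, zinc finger genes 1 of 4, chromatin enzymes 2 of 4 and translation factors 0 of 4. The median difference of 0.17 is larger than the size of every list median at 6 h given above, alternative settings aside, other than those of tetrahydrobiopterin and MHC genes.

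Genes with at least 3 features allow a stricter reading. There were 94, of which 18 had only positive features, 22 only negative features and 54 both. Among the positive ones, Gapdh is given above. Cpq, a lysosomal peptidase, had a mean of 0.45 ± 0.20 (SD over 3 features), Grb2, the adaptor between growth factor receptors and Ras, 0.39 ± 0.16 (3 features), and App, the amyloid precursor, 0.28 ± 0.12 (3 features). A further App feature, without a value at 6 h, stood at -3.04 at 4 h. Atp6v1c1, a subunit of the vacuolar proton pump, had 0.24 ± 0.03 (3 features) and stood at 0.04, 0.20 and 0.22 at 1, 2 and 4 h. Ppp3cb, the beta catalytic subunit of calcineurin, had 0.10 ± 0.05 (3 features).

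Among the negative ones, Pip5k1a, a kinase that makes the lipid PIP2, had a mean of -0.43 ± 0.15 (3 features) after -0.66 at 4 h. Itpr2, a receptor that releases calcium from the endoplasmic reticulum, had -0.39 ± 0.05 (3 features) and was negative at 1, 2 and 4 h too, at -0.26, -0.27 and -0.29. S100a6, a calcium-binding protein, had -0.33 ± 0.10 (3 features), and Ptprg, a receptor phosphatase, -0.36 ± 0.29 (3 features). Slc30a3, which loads zinc into the synaptic vesicles of mossy fibres, had -0.18 ± 0.06 (3 features) and stood at 0.32, -0.09 and -0.21 at 1, 2 and 4 h. These spreads are over features of 1 array and leave out the spread between mice.

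Some genes were measured only at 6 h. There were 80 of them. The highest were Bbs9, a gene of the ciliary BBSome (0.87), Erich2 (0.78), Sp100, a nuclear body protein (0.64), the odorant receptor Olfr160 (0.62) and Ager, the receptor for glycated proteins (0.48). The lowest after Slc10a2 were Fmr1, whose protein represses translation at synapses (-1.26), Pcsk5, a proprotein convertase (-1.09), Prpmp5 (-0.97) and Vmn2r61 (-0.87). No other array bears on these values.

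The 6 h array resembled the 4 h array most. Over features with a value on both arrays, the sign was the same for 76.7% of 9725 features at 4 h, with Pearson's r of 0.85 and Spearman's rho of 0.69. At 2 h it was the same for 70.3% of 9907 (r of 0.70, rho of 0.55), and at 1 h for 46.2% of 9524 (r of -0.10, rho of -0.14). These are descriptions across features that share an array, a probe and a dye. Pearson's r also takes in the features at or below -2 at 6 h. All 83 named ones with a value at 4 h, and all 36 with a value at 2 h, were at or below -1 there. Their part in r was not tested.

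Whether 6 h differed from the other times was tested with limma, as the 6 h array against the mean of the 1, 2 and 4 h arrays, with the spread between those times as the error. Of 6661 genes with a value on all 4 arrays, 0 (0%) passed an adjusted p of 0.05 in limma, and the lowest adjusted p was 1.00. The order of unadjusted p served only to choose genes to name and picks out no gene as changed. The genes of smallest p that were higher included Septin3 (-0.47, 0.03, 0.08 and 1.08 at 1, 2, 4 and 6 h), Erv3 (0.23, 0.57, 0.13 and 1.24), Cd48, an adhesion protein of lymphocytes (-0.09, 0.20, -0.14 and 0.67), and Rad18, a ubiquitin ligase of DNA repair (-0.14, 0.23, 0.31 and 0.82). Those that were lower included Kcnh2, the HERG potassium channel (0.13, -0.47, -0.38 and -0.998), Dnase1 (0.24, 0.14, 0.52 and -0.49) and Dkk2, a modulator of Wnt signalling (0.29, 0.43, 0.37 and -0.28). The Kcnh2 values are those of the feature measured on all 4 arrays, and its other feature, of the same accession, stood at 0.40 at 6 h. None of these genes passed after adjustment in limma.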

How the data were processed

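The log2 values are channel ratios of each array as deposited by the authors in 1 table for the 4 arrays, whose log base is a reading made here. Scanning, background correction and normalisation are not given in the sources used here, and no intensities were used, so depth and signal over background are unknown. An exact 0 (35.4% of features at 6 h) was taken as no value, since no other value occurred more than 2 times there. Each array was centred on its median. Features were named through the platform annotation: of 16281 features, 13738 had 1 symbol, 52 several and 2491 none. Identifiers of 13694 matched the gene table of assembly GRCm38.p6, and 0 symbols changed. A gene's value is the mean of its features, and its values at other times use features with a 6 h value.

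Earlier results of these data were known when the members, the 54 gene lists and the naming rule were chosen. The rule took the 15 highest and 15 lowest features, genes with at least 3 features of 1 sign, the 3 highest and 3 lowest genes of each list, the 5 highest and 5 lowest genes measured only at 6 h, the 10 smallest p in each direction of limma, and a fixed set of activity, glucocorticoid, marker and control genes. Further genes, such as those grouped by respiratory chain complex, were named after their values were seen. Tests were two-sided in limma 3.58.1 (lmFit, eBayes) under R 4.3.3, with Benjamini-Hochberg adjustment at 0.05, and were tested on simulated data. The simulation drew independent noise for each gene with its SD over the 2, 4 and 6 h arrays. That noise left out the 1 h array and the likeness of the 4 and 6 h arrays. It therefore does not show what the fit could find in these data. Values were computed with Python 3.11.15 and pandas 2.3.3. The error behind each p is how far the other times differ among themselves. Alternatives varied the reading of exact 0, centring, log base, spread, place on the array, averaging of features and arrays used.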

Additional observations from a re-analysis of the deposited data

How the results depend on the processing

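No paired analysis was possible because the labels give no replicate numbers and each time has 1 array. The 12 named features at or above 1 became 6 among features with values on all 4 arrays, 60 with the values read as natural logarithms and 27 with the arrays scaled to equal spread. The 135 at or below -1 became 43 on all 4 arrays and 227 as natural logarithms. Reading exact 0 as a value, leaving out the centring and subtracting a running median kept both counts within 1.5 times. The limma comparison called 0 genes in 7 of 8 alternatives, the leave-one-out fits included (0 to 0 genes in each direction). With exact 0 read as a value 1 gene was lower at 6 h in limma, Slc10a2 (adjusted p 0.0427), whose other values are then all 0. Leaving out features below -1.5 turned the gene values of Atp6v0d1 to 0.31, Atp6v1d to 0.22, Btc to 0.17, Cdk2 to 0.043, Dnm1 to 0.16, Il9r to 0.55, Pde10a to 0.0073, Pick1 to 0.14, Plod2 to 0.48, Slc38a3 to 0.48, Slc4a1 to 0.40, Snx3 to 0.045 and Tfrc to 0.32, and, from means smaller than 1 in size, Pdia4 to 0.27 and Gpr3 to 0.21. With features on all 4 arrays the same values were reached for these genes except Btc, Il9r, Slc4a1 and Gpr3, and Ywhaz turned from 0.46 to -0.05. With the median of a gene's features Homer1 turned to 0.0092 and Pdia4 to 0.11, and with the running median Jun turned to -0.02 and Rgs5 to 0.0095. Of 53 lists of at least 5 genes, a median changed sign in 1 without centring, 1 on all 4 arrays, 4 with the running median, 1 without features below -1.5, and 0 as natural logarithms. With exact 0 read as a value 25 medians lost their sign, since unmeasured genes then count as 0.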

Other observations

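Gene families outside the main groups also held wide values at 6 h. Of 146 solute carriers, 65 were positive, with a median of -0.02, between Slc10a2 (-3.30) and Slc43a1, an amino acid transporter (0.79). Of 74 homeobox, Sox and forkhead factors, 33 were positive, with a median of -0.04 (-0.07 with the running median subtracted). Hoxb5 stood at 0.99 and Hoxa10 at 0.92, while Lhx1 stood at -2.98 and Sox3 at -2.84, each on 1 feature at or below -2. Of 13 subunits of the vacuolar proton pump, 7 were positive, with a median of 0.03. The median was 0.15 (10 positive) on features with a value on all 4 arrays, 0.14 (9 positive) without features below -1.5 and 0.07 with the running median by feature number subtracted. The features of Atp6v1a, a catalytic subunit, stood at 0.27 and -1.15, and those of Atp6v0d1 at 0.31 and -2.47. Of 108 tubulin, actin and motor genes, 69 were positive, with a median of 0.06 (0.04 on features with a value on all 4 arrays), among them Map2, the microtubule protein of dendrites (0.42), and Kifc1 (0.41).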
